A study of Mus musculus with 8 samples.

Results

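The shift between 4 h and 8 h of T cell activation was followed in 4 of the 8 arrays of a study of mouse splenic T cells, with the 8 h array of each genotype set against the 4 h array of the same genotype. All 4 arrays hold cells of C57Bl/6 mice, enriched from spleen with a pan-T cell kit in an AutoMACS device and cultured with antibodies against CD3 and CD28 at 2 µg/ml. They are a Gfi1-knockout array at 4 h, a Gfi1-knockout array at 8 h, a wild-type array at 4 h and a wild-type array at 8 h, each on Affymetrix MOE430A_2.0. The other 4 arrays hold the same genotypes before stimulation and at 24 h. The pair of 8 h arrays was compared with the pair of 4 h arrays over all probe sets, and the genes named below were chosen partly by the size of their change. The sources used here do not say how the knockout allele was made, how old the mice were or how many animals stand behind each array. The study has no array of cells kept without the antibodies for the same hours, so stimulation and time in culture cannot be told apart.

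Ligation of the T cell receptor together with CD28 first turns on immediate early transcription factors and, through NFAT, AP-1 and NF-kB, a burst of cytokine transcripts. The cells then build ribosomes, chaperones and metabolic enzymes, lose the transcripts of the resting state, and only later copy their DNA and divide. Interferons act through STAT proteins on a sequence called the interferon-stimulated response element and turn on antiviral genes. Gfi1 is a zinc finger repressor of transcription with known roles in lymphocytes and in granulocyte precursors.

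The signal of Gfi1 did not check the labels: it was 5979 and 6459 at 4 h and 8 h in the arrays labelled knockout and 6359 and 5259 in those labelled wild type, and the sources used here do not place its probe set relative to the deletion. The 4 h and 8 h arrays of a genotype are therefore called the knockout-labelled pair and the wild-type-labelled pair. The wild-type-labelled 8 h array stood apart in RNA quality measures, with a 3' to 5' signal ratio of 0.939 for Gapdh and 1.28 for beta-actin against 0.725 to 0.813 and 1.11 to 1.17 in the other 7 arrays. Changes are given for each genotype below, so that the values of the knockout-labelled pair stand without that array. The arrays also differed in their cells. The summed signal of 13 granulocyte markers was 177060 and 120500 in the knockout-labelled pair at 4 h and 8 h and 11528 and 5175 in the wild-type-labelled pair, while that of 15 T cell identity genes was 31915 and 28171 against 96186 and 73493. The T cell receptor complex genes Cd3d, Cd3e and Cd3g were above the floor on all 4 arrays. In such bulk samples fewer cells of a type and less RNA per cell cannot be told apart.

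Between 4 h and 8 h, most ribosome biogenesis, chaperone and proteasome genes and a set of antiviral genes were higher in both genotypes, and immediate early transcription factors, cytokines and mitotic genes were for the most part lower. The highest gene by mean change was Gzmb, the granzyme of cytotoxic granules, with signals of 1487 at 4 h and 16876 at 8 h in the knockout-labelled pair and 1121 and 5075 in the wild-type-labelled pair. Both 8 h signals of Gzmb lay above both 4 h signals, an 11.3-fold and a 4.53-fold increase, and a mean log2 change of 2.84 (SD 0.94, n = 2 genotypes). The lowest was Pde2a, a phosphodiesterase that breaks down cyclic nucleotides, with 732 at 4 h and 186 at 8 h in the knockout-labelled pair and 1056 and 144 in the wild-type-labelled pair, that is 3.94-fold and 7.33-fold lower at 8 h. Both genes were picked as extremes of these same arrays, so the lack of overlap between their 4 h and 8 h signals adds no support.

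Signals below a floor of 142 were set to it, so a difference against such a value is a lower bound, and 15062 probe sets for 8457 genes were above it on at least 2 of the 8 arrays. Of these genes, 33 were at least 2-fold higher at 8 h in both genotypes (0.39% of genes tested) and 41 at least 2-fold lower (0.485%). The same count over probe sets was 46 higher (0.305%) and 53 lower (0.352%), and 60 higher and 33 lower with each array divided by its median. A further 13 probe sets passed 2-fold in opposite directions in the genotypes, against 99 in the same direction. Among probe sets with a mean signal over 1000 and all 4 signals above the floor, 29 passed in the same direction and 1 in opposite directions. Genes that met the rule had 41 further probe sets. Of these, 27 went the same way in both genotypes and only 6 met the rule too. By any amount, 24.8% of genes were higher in both genotypes and 28.2% lower, and the median mean log2 change over all genes was -0.01.

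The test of this step in limma, fitted to all 8 arrays with time and genotype in the model, called 0 probe sets higher (0%) and 0 lower (0%) at an adjusted p under 0.05 and at least 2-fold. The smallest adjusted p was 0.80, that of Gzmb (SE 0.33), and the alternatives tried, quantile normalization and the fit to the 4 arrays among them, also called 0. At an unadjusted p under 0.05 limma listed 459 probe sets (3.05%), 180 of them higher and 279 lower. This share is below the one that such a threshold would list if no probe set changed. With 1 array per genotype and time, the residual of this fit is the difference between the genotypes' responses and not a spread between animals or cultures. The genes and groups below are therefore described by size in these 4 arrays, and none of them passed a test of the 4 h to 8 h step. The 2-fold rule controls no error rate, and noise between single arrays can also pass it. The step was small beside its neighbours, with which it shares arrays: the SD of the log2 change over probe sets was 0.45 in the knockout-labelled pair and 0.51 in the wild-type-labelled pair, against 0.70 and 0.79 from 0 to 4 h and 0.72 and 0.67 from 8 to 24 h.

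**Figure D1:**
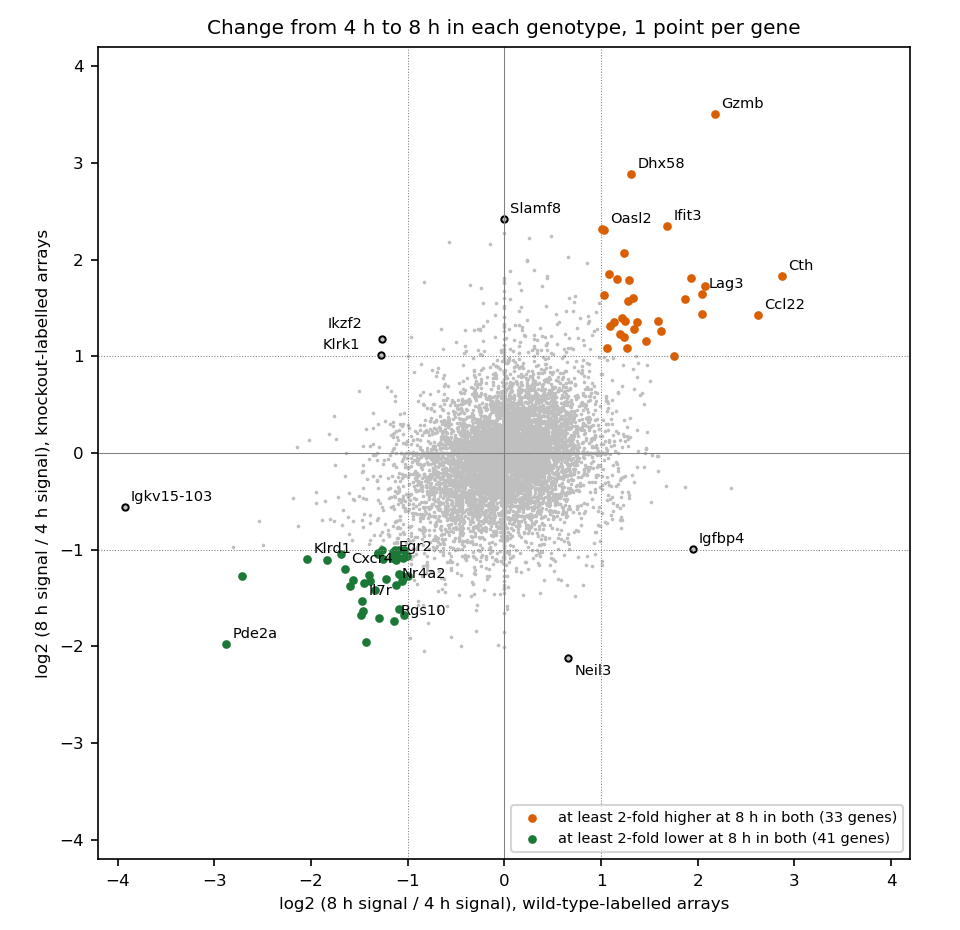
Log2 ratio of the 8 h to the 4 h signal for each of 8457 genes, wild-type-labelled pair on the horizontal and knockout-labelled pair on the vertical axis, with dotted lines at 2-fold. Orange points are the 33 genes at least 2-fold higher in both genotypes, with Gzmb farthest out, green points the 41 at least 2-fold lower, and open circles name genes whose change differed most between the genotypes.

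Lag3, an inhibitory receptor of activated T cells, gave 152 at 4 h and 474 at 8 h in the knockout-labelled pair and 217 and 897 in the wild-type-labelled pair, so that both 4 h signals were near the floor and both 8 h signals well above it (3.12-fold and 4.14-fold). Zbtb32, a zinc finger repressor that restrains cytokine production in activated lymphocytes, gave 672 at 4 h and 1722 at 8 h in the knockout-labelled pair and 245 and 637 in the wild-type-labelled pair, the same 2.56-fold and 2.6-fold in a brighter and a dimmer pair. At 24 h Lag3 stood at 2054 and 1965 and Zbtb32 at 3500.4 and 968, above their 8 h signals in both genotypes.

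The chemokine Ccl22, made by activated T cells as well as dendritic cells, gave 136 at 4 h and 381 at 8 h in the knockout-labelled pair and 245 and 1512 in the wild-type-labelled pair, higher at 8 h in both but 6.18-fold in the wild-type-labelled and at least 2.68-fold in the knockout-labelled pair, where the 4 h signal was below the floor. Fscn1, the actin-bundling protein fascin, gave 461 then 1598 in the knockout-labelled pair and 568 then 1395 in the wild-type-labelled pair, and its other probe set was higher by 1.32 and 1.03 on the log2 scale. Lpl, lipoprotein lipase, and Procr, the protein C receptor, were far brighter in the knockout-labelled pair. Lpl gave 2653 then 9294 in the knockout-labelled pair and 99.7 then 543 in the wild-type-labelled pair, and Procr 656 then 3263 in the knockout-labelled pair and 275 then 554 in the wild-type-labelled pair. The other probe set of Lpl was at 1.34 and 0.00, with both wild-type-labelled signals under the floor. Gphn, which encodes the scaffold and cofactor synthesis protein gephyrin, gave 361 at 4 h and 981 at 8 h in the knockout-labelled pair and 315 and 1300.4 in the wild-type-labelled pair, with a second probe set higher by 1.19 and 2.18. Monocyte and macrophage markers, as a summed signal of 18 genes, went from 70455 to 90425 in the knockout-labelled pair and from 12743 to 9766 in the wild-type-labelled pair. Much of the former rise was Lyz2, which went from 11338 to 24610 there. As a list these markers were mixed, with 4 higher and 4 lower in both genotypes (median -0.02). C1qa and C1qc were under the floor on all 4 arrays. The dendritic cell list, which holds Ccl22, had 3 of 6 tested genes higher in both genotypes and 0 lower (median 0.53). Its summed signal at 8 h was 1.32 and 2.80 of that at 4 h, with 3 and 2 of its genes at the floor at 4 h. The part of monocytes, macrophages and dendritic cells in the genes above was not tested.

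Among 16 cytotoxic granule genes, 6 were higher in both genotypes and 5 lower in both, so that Gzmb was not joined by the list as a whole (median mean log2 change 0.04). Gzma, another granzyme, was higher by 0.35 and 1.10 on the log2 scale in the knockout-labelled pair and wild-type-labelled pair, and Serpinb9, the inhibitor of granzyme B, by 1.11 and 0.30. Prf1, the pore-forming perforin, was higher by 1.20 in the knockout-labelled pair and at -0.09 in the wild-type-labelled pair. Klrd1, the receptor chain CD94 of natural killer and CD8 T cells, was lower instead, with 1999.5 at 4 h and 933 at 8 h in the knockout-labelled pair and 3759 and 913 in the wild-type-labelled pair. Its 8 h signals nearly coincided although the 4 h signals had differed. The natural killer cell list could say little here, as 2 of its 8 genes were tested.

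**Figure D2:**
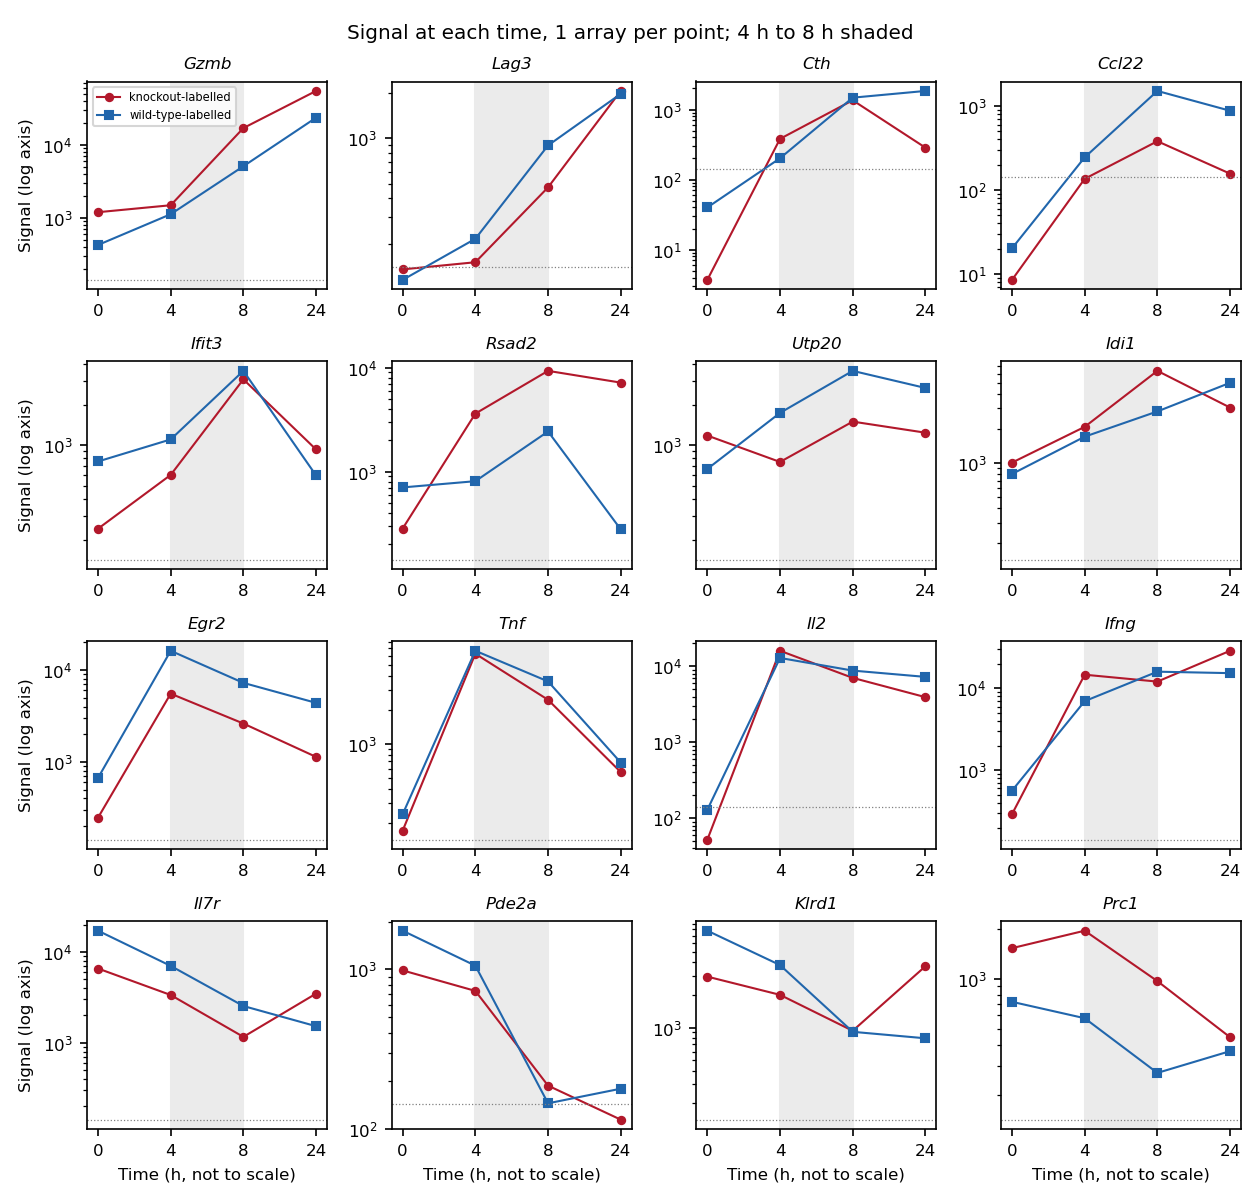
Signal of 16 genes at 0, 4, 8 and 24 h on a log axis, with 1 array per point, knockout-labelled arrays as red circles, wild-type-labelled arrays as blue squares, the 4 h to 8 h step shaded and the floor dotted where it falls in range. Gzmb and Lag3 climb through 24 h, Ifit3 peaks at 8 h in both genotypes, and Egr2 and Tnf are highest at 4 h.

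Antiviral genes of the interferon response were for the most part higher at 8 h, by more in the knockout-labelled pair. Of the 25 tested members of an interferon list, 15 were higher in both genotypes and 4 lower, and 7 of them, Ifit1, Ifit3, Rsad2, Mx1, Oas2, Oasl1 and Oasl2, were at least 2-fold higher in both. The list's median log2 change was 0.82 for the mean of the genotypes, 1.05 in the knockout-labelled pair and 0.24 in the wild-type-labelled pair. Its summed signal at 8 h was 1.24 of that at 4 h in the knockout-labelled pair but 0.886, and so lower, in the wild-type-labelled pair. Oas3, Dhx58, Ddx60 and Trim30d, which take part in antiviral defence or its regulation and were not on the list, were also among the 33 genes.

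To show what these genes carry before their start sites, the RefSeq promoters (GRCm38.p6) were searched over the 250 bases before each start for the core of the interferon-stimulated response element, GAAANNGAAA, on both strands with overlapping matches allowed. A promoter was given for 5 of the 7 list members at least 2-fold higher in both genotypes, and 3 of these 5 held the motif, as did 6 of 16 matched genes among the other members of the list. It was found in 7 of 25 matched genes among all 33 that were at least 2-fold higher, in 1 of 33 matched genes among the 41 lower, in 3.48% of the 6920 tested genes with a promoter and in 2.98% of all 32851 windows of that length. The windows of 5 higher genes with a match are shown, followed by that of Irgm1, a list member with a match that was lower at 8 h. Capitals mark the motif or its reverse complement, and the last base lies next to the start site. They lie at chr19:34583279-34583528 (plus strand) for Ifit3, chr19:34640639-34640888 (plus strand) for Ifit1, chr12:26456453-26456702 (minus strand) for Rsad2, chr5:120777660-120777909 (minus strand) for Oas3, chr8:61927837-61928086 (plus strand) for Ddx60 and chr11:48871421-48871670 (minus strand) for Irgm1.
Ifit3: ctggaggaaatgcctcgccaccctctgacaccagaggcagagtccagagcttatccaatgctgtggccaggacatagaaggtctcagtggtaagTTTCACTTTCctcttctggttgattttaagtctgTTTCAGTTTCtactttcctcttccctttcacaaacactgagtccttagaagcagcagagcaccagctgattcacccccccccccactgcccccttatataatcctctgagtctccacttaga
Ifit1: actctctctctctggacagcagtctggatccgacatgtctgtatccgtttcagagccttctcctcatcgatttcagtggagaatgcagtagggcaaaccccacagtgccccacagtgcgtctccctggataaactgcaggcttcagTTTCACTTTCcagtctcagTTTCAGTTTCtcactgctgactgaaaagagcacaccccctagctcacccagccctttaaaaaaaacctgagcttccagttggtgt
Rsad2: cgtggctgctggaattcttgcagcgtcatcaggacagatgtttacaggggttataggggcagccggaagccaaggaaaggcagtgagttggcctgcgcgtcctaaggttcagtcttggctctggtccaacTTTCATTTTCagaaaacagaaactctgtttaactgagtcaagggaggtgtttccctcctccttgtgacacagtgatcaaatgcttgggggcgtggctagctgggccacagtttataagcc
Oas3: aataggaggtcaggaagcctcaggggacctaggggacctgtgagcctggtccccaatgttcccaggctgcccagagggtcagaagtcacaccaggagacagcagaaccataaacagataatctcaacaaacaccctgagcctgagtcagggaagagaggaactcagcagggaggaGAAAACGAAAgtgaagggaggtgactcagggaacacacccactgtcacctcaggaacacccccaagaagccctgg
Ddx60: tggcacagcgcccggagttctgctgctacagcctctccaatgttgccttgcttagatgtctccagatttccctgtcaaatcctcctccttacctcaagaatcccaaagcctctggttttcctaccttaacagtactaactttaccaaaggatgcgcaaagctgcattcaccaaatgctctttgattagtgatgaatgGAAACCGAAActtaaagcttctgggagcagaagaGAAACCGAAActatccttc
Irgm1: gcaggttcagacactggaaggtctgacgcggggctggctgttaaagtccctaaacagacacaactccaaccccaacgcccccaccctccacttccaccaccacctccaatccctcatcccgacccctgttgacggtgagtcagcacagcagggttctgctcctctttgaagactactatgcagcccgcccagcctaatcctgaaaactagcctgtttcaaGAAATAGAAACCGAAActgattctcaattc

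Ifit1 and Ifit3 each had 2 matches, which ended 95 and 76 bases before the start in Ifit1 and 147 and 113 bases before it in Ifit3. Irgm1 had overlapping matches ending 21 and 15 bases before its start. The windows of Oasl1 and Oasl2 held no match, and a match or its lack here is a description of these letters only.

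Ifit3, of the same family as the antiviral RNA sensor Ifit1, gave signals of 603 at 4 h and 3075 at 8 h in the knockout-labelled pair and 1104 and 3554 in the wild-type-labelled pair. The signal was 5.1-fold and 3.22-fold higher at 8 h (mean log2 change 2.02, SD 0.47, n = 2), and at 24 h the signals were 930.3 and 598. Ifit1 itself gave 1356 at 4 h and 4134 at 8 h in the knockout-labelled pair and 837 and 2108 in the wild-type-labelled pair (3.05-fold and 2.52-fold). Rsad2, the antiviral enzyme viperin, gave 3615 then 9319 in the knockout-labelled pair and 809 then 2434 in the wild-type-labelled pair, and its knockout-labelled 4 h signal lay above the wild-type-labelled 8 h signal, so that the times overlapped across genotypes but not within them. Mx1, an antiviral GTPase, was higher by 2.01-fold in the knockout-labelled pair and 3.37-fold in the wild-type-labelled pair, and Oas2 by 3.6-fold and 2.12-fold.

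The oligoadenylate synthetases Oas2 and Oas3, which make the activator of RNase L, had mean log2 changes of 1.47 and at least 1.90, and their relatives Oasl1 and Oasl2 of 1.66 and 1.67. Oasl2 gave 888 at 4 h and 4412 at 8 h in the knockout-labelled pair and 487 and 998 in the wild-type-labelled pair. The RNA sensor regulator Dhx58 was the most unequal in size among them, from 251 to 1848 and from 261 to 649, or 7.37-fold and 2.49-fold. Its other probe set was at 2.73 and 0.00, with the knockout-labelled 4 h signal and both wild-type-labelled signals under the floor. Trim30d gave 327 then 988 in the knockout-labelled pair and 151 then 551 in the wild-type-labelled pair. Ddx60, a helicase tied to RNA sensing, gave 242 then 841 in the knockout-labelled pair and 309 then 691 in the wild-type-labelled pair. These antiviral genes were taken from those at least 2-fold higher in both genotypes, so their shared rise follows from that choice.

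For other members the 8 h excess was smaller in the wild-type-labelled pair. Usp18, which turns off interferon receptor signalling, was higher by 2.23 in the knockout-labelled pair and 0.26 in the wild-type-labelled pair, Ifit2 by 2.24 and 0.49, Oas1a by 2.00 and 0.24, and Irf7, the factor that amplifies interferon genes, by 1.42 and 0.87. The factor Irf1 and the GTPases Irgm1, Igtp and Gbp3, which interferon gamma also induces, were the 4 members lower in both, Irf1 with 15939 at 4 h and 10856 at 8 h in the knockout-labelled pair and 20203 and 11271 in the wild-type-labelled pair. Igtp was at -0.48 and 0.00, just below level in the latter, and the GTPase Gbp2 at 0.27 and -0.17. The interferon gamma gene Ifng went opposite ways, from 14703 to 12112 in the knockout-labelled pair and from 6989 to 16010 in the wild-type-labelled pair. The difference between the genotypes was not tested, since each has 1 array per time.

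**Figure D3:**
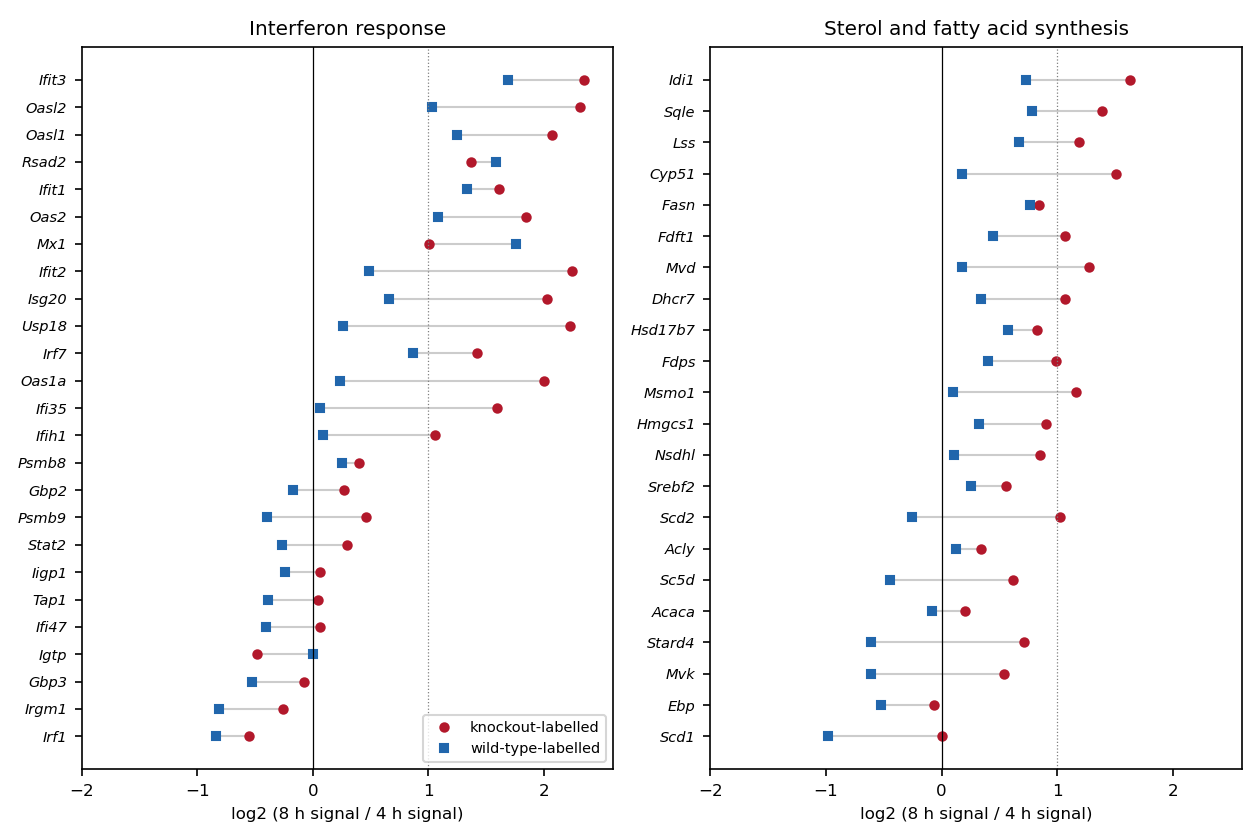
Log2 ratio of the 8 h to the 4 h signal for each tested member of the interferon list (25 genes) and of the sterol and fatty acid synthesis list (22 genes), red circles for knockout-labelled and blue squares for wild-type-labelled pair, with the dotted line at 2-fold. Ifit3, Oasl2 and Oasl1 lead the interferon list in the mean of both genotypes, Irf1 closes it, and sterol genes lie farther right in the knockout-labelled pair.

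The machinery of growth was higher at 8 h by small amounts in most of its members. Of 30 ribosome biogenesis genes, 26 were higher in both genotypes and 1 lower, with a median of 0.40 (0.56 in the knockout-labelled pair and 0.21 in the wild-type-labelled pair) beside -0.01 for all genes. Utp20, a component of the complex that processes ribosomal RNA, gave 752 at 4 h and 1497 at 8 h in the knockout-labelled pair and 1736 and 3554 in the wild-type-labelled pair. It was higher in each genotype by 0.99 and 1.03, just short of the 2-fold rule in the knockout-labelled pair. Polr1b, a subunit of RNA polymerase I, was higher by 1.03 and 0.48, and Wdr12, a factor for the large ribosomal subunit, by 0.83 and 0.60. The nucleolar proteins Ncl and Npm1, among the brightest of the list, were higher by 0.34 and 0.09 and by 0.23 and 0.25, and Rrp1b was the 1 gene lower in both (-0.17 and -0.37).

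Chaperones and protein turnover genes went the same way. All 8 subunits of the CCT chaperonin, which folds actin and tubulin, were higher in both genotypes (median 0.33), with Cct3 at 8623 and 13275 in the knockout-labelled pair and 13983 and 18544 in the wild-type-labelled pair. Of 5 probe sets of Cct3, 4 were higher in both genotypes and 1 was lower, at -0.23 and -0.55. Of 11 cytosolic heat shock genes, 10 were higher (median 0.42), led by Hspa1b with 785 at 4 h and 2322 at 8 h in the knockout-labelled pair and 2072 and 3415 in the wild-type-labelled pair, a gene nearly identical to Hspa1a, so that its signal may hold both. Mitochondrial import and folding genes were higher in 14 of 15 (median 0.41), among them the chaperonin Hspd1 by 0.43 and 0.55 and the import receptor channel Tomm40 by 0.65 and 0.48. Proteasome subunits were higher in 26 of 31 and lower in 3 (median 0.26), and translation initiation factors higher in 12 of 14 (median 0.27). Endoplasmic reticulum folding genes differed from these in their counts, with 1 of 18 higher and 4 lower in both genotypes and medians of -0.25 and 0.23.

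Metabolic supply genes were higher in part. Cth, which makes cysteine from cystathionine, was second among all genes by mean change, with 382 at 4 h and 1356 at 8 h in the knockout-labelled pair and 202 and 1477 in the wild-type-labelled pair and 0 h signals below the floor in both genotypes. Each 8 h signal lay well above the 4 h signal of its genotype (3.55-fold and 7.32-fold). Bcat1, the cytosolic transaminase of branched-chain amino acids, gave 1076 at 4 h and 3200.2 at 8 h in the knockout-labelled pair and 2065 and 5008 in the wild-type-labelled pair. Slc7a3, a carrier of cationic amino acids, gave 420.3 then 1010.2 in the knockout-labelled pair and 624 then 1914 in the wild-type-labelled pair. Of 21 further amino acid supply and ATF4-linked genes, 12 were higher in both genotypes and 0 lower (median 0.32), led by the neutral amino acid carrier Slc1a4 (0.91 and 1.23). The factor Atf4 itself was at -0.08 and 0.10, and Slc7a5, the large neutral amino acid carrier, at 0.12 and 1.13. Aminoacyl-tRNA synthetases were higher in both genotypes in 11 of 18 (median 0.24) and nucleotide synthesis genes in 11 of 15 (median 0.31), with Cad, the enzyme that starts pyrimidine synthesis, at 0.24 and 1.37 and Dhodh, a later step, at 0.98 and 0.60. Among 20 glycolysis and hypoxia genes 12 were higher in both, the hexokinase Hk2 most, with 1926 at 4 h and 3511 at 8 h in the knockout-labelled pair and 1214 and 3046 in the wild-type-labelled pair.

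Sterol and fatty acid synthesis genes were higher in both genotypes in 15 of 22 and lower in 1, by more in the knockout-labelled pair (median 0.88 against 0.18, a difference that was not tested). Idi1, which isomerises the building block of sterols, gave 2069.6 at 4 h and 6397 at 8 h in the knockout-labelled pair and 1698 and 2824 in the wild-type-labelled pair, and its other probe set was higher by 1.71 and 1.04. Sqle, the squalene epoxidase, gave 1148 at 4 h and 3012 at 8 h in the knockout-labelled pair and 812 and 1397 in the wild-type-labelled pair. Lss, which closes the sterol rings, gave 312 then 709 in the knockout-labelled pair and 286 then 456 in the wild-type-labelled pair. The other probe set of Lss was weaker, at 0.59 and -0.20. Cyp51, a later demethylase, was higher by 1.51 and 0.17, and Fasn, the fatty acid synthase, by 0.85 and 0.76. Sc5d, Stard4, Mvk, Scd2 and Acaca were higher in the knockout-labelled pair and lower in the wild-type-labelled pair, Stard4 by 0.71 and -0.61. The genotypes differed at the same time in the markers of granulocytes and monocytes given above, and the part of those cells in the sterol genes was not tested.

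**Figure D4:**
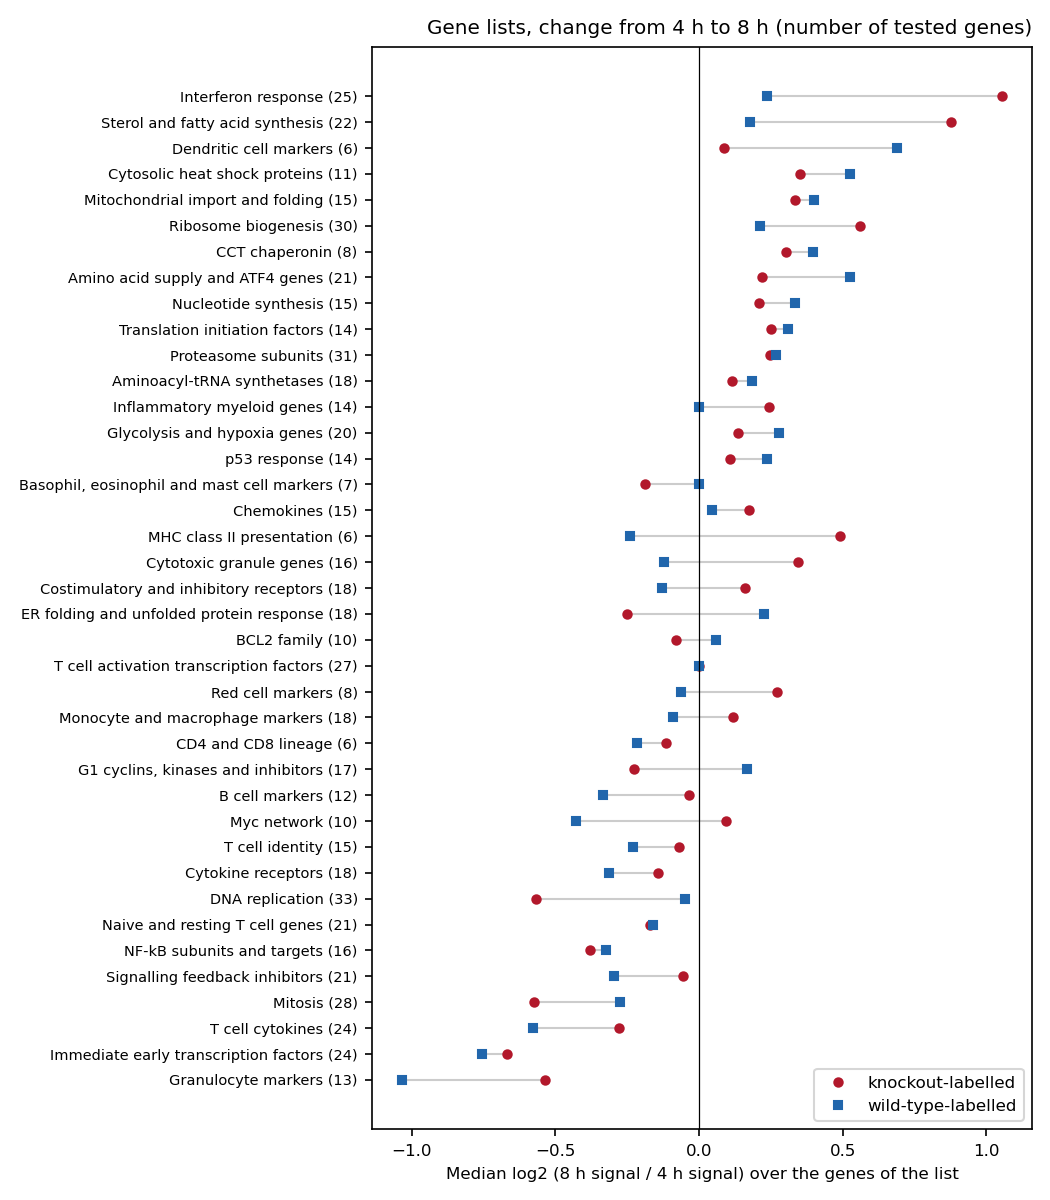
Median log2 ratio of the 8 h to the 4 h signal over the tested genes of each list with at least 5 genes, red circles for knockout-labelled and blue squares for wild-type-labelled pair, with the number of genes in parentheses. Interferon and sterol lists lie highest but with the genotypes far apart, biosynthetic and chaperone lists lie above 0 in both, and immediate early and granulocyte lists lie lowest.

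Genes of the immediate early transcription factor list were for the most part lower at 8 h than at 4 h. That list also holds Zfp36, which acts on messages and is not a transcription factor. Of 24 tested, 20 were lower in both genotypes and 2 higher (median -0.64, -0.67 and -0.75 by genotype), and Nr4a2, Zfp36, Egr2 and Atf3 were at least 2-fold lower in both. Egr2, a zinc finger factor induced by receptor signalling, gave 5534 at 4 h and 2616 at 8 h in the knockout-labelled pair and 16224 and 7253 in the wild-type-labelled pair. Each 8 h signal lay below its 4 h partner, by 2.12-fold and 2.24-fold, and well above the 0 h signals of 246 and 668. Nr4a2, a nuclear receptor, gave 2071 at 4 h and 807 at 8 h in the knockout-labelled pair and 5565 and 2556 in the wild-type-labelled pair. Zfp36, which destabilises cytokine messages, gave 4420.2 then 1855 in the knockout-labelled pair and 6300.3 then 2956 in the wild-type-labelled pair. Nr4a1, Fos and Btg2 were just short of the rule in at least 1 genotype, with log2 changes of -1.10 and -0.96, -0.91 and -0.98 and -0.94 and -1.40. Myc was nearly level (-0.07 and -0.24), and the list's members Jund and Fosl1 were the 2 higher in both, by 0.14 and 0.15 and by 0.09 and 0.40.

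Most cytokine genes were lower at 8 h than at 4 h as well. Of 24, 15 were lower at 8 h in both genotypes and 6 higher (median -0.48). Tnf, tumour necrosis factor, gave 6269 at 4 h and 2454 at 8 h in the knockout-labelled pair and 6659 and 3567 in the wild-type-labelled pair. The growth factor Csf2 gave 2994 then 1238 in the knockout-labelled pair and 2074 then 1149.6 in the wild-type-labelled pair. Il2, the T cell growth factor, gave 16012 at 4 h and 7044 at 8 h in the knockout-labelled pair and 12882 and 8782 in the wild-type-labelled pair, lower in both but still far above its 0 h signals of 52.1 and 129. Among the 6 higher in both were Tnfsf4, the ligand of OX40, by 1.09 and 0.66, Tnfsf8 by 0.57 and 0.25, and Il13 by 0.36 and 0.58. Genes of the NF-kB pathway were lower in both genotypes in 11 of 16 (median -0.29), with the subunit Rel at -0.48 and -1.05 and the inhibitor Tnfaip3 at -0.42 and -1.60. Feedback inhibitors were lower in 11 of 21 (median -0.31), among them the phosphatase gene Dusp1 at -0.43 and -0.97, while the suppressor Socs2 was at 0.24 and 0.88. The inhibitor Nfkbia stayed near its 4 h level (-0.05 and -0.01).

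The difference from the first step was tested as the 4 h to 8 h change minus the 0 to 4 h change, which share the 4 h arrays. A large rise from 0 to 4 h that does not go on is enough for a call. A call therefore does not show a fall from 4 h to 8 h. In limma 4 probe sets were called for a lower second step (0.0266%) and 0 for a higher one (0%), and 822 of 15062 had an unadjusted p under 0.05. The 4 called were those of Il2, Tnf, Egr2 and the chemokine gene Ccl3. Il2 was higher by 6.82 and 6.50 from 0 to 4 h and lower after it, a step difference of -7.53 (SE 0.54, limma adjusted p = 0.0146), its 0 h signals being under the floor. Tnf had a step difference of -6.13 (SE 0.44) and Egr2 one of -5.67 (SE 0.40), both with a limma adjusted p of 0.0146. Ccl3, which draws in monocytes and lymphocytes, differed from these by staying near its 4 h level, with 13329 at 4 h and 12143 at 8 h in the knockout-labelled pair and 6219.7 and 7908 in the wild-type-labelled pair and a step difference of -5.67 (SE 0.46, limma adjusted p = 0.0222). Leaving out any 1 of the 4 h and 8 h arrays ended all 4 calls, with limma adjusted p from 0.452 to 1.00 for these genes and step differences from -8.25 to -5.35, and the fit with no genotype block also called 0.

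Genes of resting T cells were mixed at 8 h, with more of them lower than higher. Of 21 naive and resting genes, 11 were lower in both genotypes and 6 higher (median -0.29), and Il7r and Rgs10 were at least 2-fold lower in both. The median was only -0.08 with the floor at the 60th percentile. The summed signal of the list at 8 h was 1.02 of that at 4 h in each genotype, so it did not fall. Il7r, the receptor for the survival cytokine interleukin 7, gave 3359.7 at 4 h and 1160.2 at 8 h in the knockout-labelled pair and 7035 and 2539.9 in the wild-type-labelled pair. The ratio of 4 h to 8 h signal was nearly the same in the genotypes, 2.9-fold and 2.77-fold, and its other probe set was at -1.40 and -1.39 on the log2 scale. Rgs10, which shortens G protein signalling, gave 2238 at 4 h and 672 at 8 h in the knockout-labelled pair and 5599 and 2548 in the wild-type-labelled pair. Klf2, the factor that keeps T cells quiescent and recirculating, was at -1.90 and -0.56, its target S1pr1, the receptor for leaving lymphoid organs, at -0.97 and -0.74, and Dgka, a brake on receptor signalling, at -1.42 and -0.68. Ccr7, the homing receptor for lymph nodes, went the other way, with 1961 at 4 h and 5329.9 at 8 h in the knockout-labelled pair and 11252 and 16363 in the wild-type-labelled pair.

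Receptors and signalling genes outside that list were among the 41. Il18r1, the receptor for interleukin 18, gave 2924 at 4 h and 1151 at 8 h in the knockout-labelled pair and 2507 and 919 in the wild-type-labelled pair, with close values in both genotypes at both times. The chemokine receptor Cxcr4 gave 2054 at 4 h and 896 at 8 h in the knockout-labelled pair and 3480.5 and 1112 in the wild-type-labelled pair. Cd7, a surface protein of T cells, Cmah, which makes a sialic acid, and the kinase gene Matk ended under the floor in at least 1 array at 8 h, so that their mean changes of -1.48, -1.50 and -1.47 are lower bounds in size. Nsg2, a vesicle trafficking protein, gave 665 then 171 in the knockout-labelled pair and 1215 then 449.8 in the wild-type-labelled pair. Plekhg2, a guanine nucleotide exchange factor, gave 1041 then 326 in the knockout-labelled pair and 1418 then 508 in the wild-type-labelled pair. Mxd4, which antagonises Myc at its partner Max, gave 457 then 147 in the knockout-labelled pair and 391 then 119 in the wild-type-labelled pair, and its 3 other probe sets were near or under the floor, where the floor sets their changes of -0.19 to 0.00. The growth arrest gene Ccng2 was at -1.62 and -1.09 and Ypel3, another gene linked to growth arrest, at -1.67 and -1.03. Igk, an immunoglobulin light chain locus of B cells, was at -1.27 and -2.71, and its probe sets can share signal with near-identical segments. Abtb1, an ankyrin repeat protein, was at -1.31 and -1.56. The latter is a lower bound in size, as the wild-type-labelled 8 h signal of 68.8 was under the floor. Ndc80 is described with the mitotic genes.

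Genes of mitosis were for the most part lower at 8 h. Of 28 mitotic genes, 21 were lower in both genotypes and 0 higher (median -0.47, -0.57 and -0.27 by genotype). With the floor at the 60th percentile, 12 of 27 in this list were lower in both, and the wild-type-labelled median was 0.00. Ndc80, which links kinetochores to microtubules and was not on that list, gave 1275 at 4 h and 479 at 8 h in the knockout-labelled pair and 562 and 222 in the wild-type-labelled pair. Prc1, which bundles the microtubules of the central spindle, gave 1941 at 4 h and 966 at 8 h in the knockout-labelled pair and 578 and 271 in the wild-type-labelled pair, the 1 list member at least 2-fold lower in both. Mki67, the proliferation antigen, went from 9091 to 3761 and from 1670.1 to 1474, so that the knockout-labelled 8 h signal still exceeded the wild-type-labelled 4 h signal. Of 33 DNA replication genes, 16 were lower in both and 0 higher, with medians of -0.57 and -0.05, the latter 0.00 after quantile normalization. The helicase subunit Mcm5 was at -0.74 and 0.24 and the ribonucleotide reductase subunit Rrm2 at -0.59 and -0.68. At 24 h the signal of Rrm2 was 2848 in the knockout-labelled pair and 5295 in the wild-type-labelled array. Among G1 genes, the cyclin Ccnd2 was higher by 0.70 and 0.39 and the inhibitor Cdkn1b was at -0.67 and -0.60, though a second probe set of Cdkn1b was at 0.89 and -0.21.

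Markers of other cells differed between the times too. Granulocyte markers were lower in both genotypes in 11 of 13 (median -0.70), 1 of them at the floor in the wild-type-labelled 8 h array and 1 in the knockout-labelled one. Their summed signal at 8 h was 0.681 of that at 4 h in the knockout-labelled pair and 0.449 in the wild-type-labelled pair. Mpo, the peroxidase of neutrophil precursors, gave 41520 at 4 h and 28936 at 8 h in the knockout-labelled pair and 2264 and 585 in the wild-type-labelled pair. Ctsg, a granule protease, gave 28004 then 17933 in the knockout-labelled pair and 802 then 306 in the wild-type-labelled pair. The summed signal of 12 B cell markers was 0.866 and 0.424 of that at 4 h, with 5 of the 12 at the floor in the knockout-labelled pair at both times and 1 then 0 in the wild-type-labelled pair. Of the 12, 5 were lower in both genotypes and 0 higher, with a median of only -0.08. Of the antibody chain genes, Jchain was at -0.40 and -1.95 and Ighm at -0.11 and -1.25. These 2 genes dominated the sum. In the wild-type-labelled pair Ighm went from 44406 to 18614 and Jchain from 13093 to 3383, beside sums of 62867 and 26656. T cell identity genes were lower in both in 9 of 15 (median -0.21), with summed signals at 0.883 and 0.764 of the 4 h value, while dividing each array by its median left 7 of 15 lower and turned the knockout-labelled median from -0.07 to 0.04. Lyz2, the lysozyme of macrophages, went from 11338 to 24610 in the knockout-labelled pair and from 825 to 1115 in the wild-type-labelled pair. The part of these cells in the mitotic, interferon and other changes was not tested.

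The change itself differed at least 4-fold between the genotypes for 45 probe sets with the knockout-labelled change above the wild-type-labelled one (0.299%) and 23 below it (0.153%). Slamf8, a receptor of myeloid cells, gave 439.9 at 4 h and 2352 at 8 h in the knockout-labelled pair and 142 and 99.7 in the wild-type-labelled pair. Rab20, a GTPase of vesicle traffic, gave 155 then 696 in the knockout-labelled pair and 157 then 110.4 in the wild-type-labelled pair. Both were higher in the knockout-labelled pair alone and near or under the floor in the wild-type-labelled pair. Plaur, the urokinase receptor, was level in the knockout-labelled pair (1721 and 1796) and lower in the wild-type-labelled pair (1459 and 329.8). Ikzf2, the Ikaros family factor Helios, Klrk1, the activating receptor NKG2D, and Ahi1, a protein of the primary cilium, were higher in the knockout-labelled pair and lower in the wild-type-labelled pair. Klrk1 gave 1055 then 2131 in the knockout-labelled pair and 944 then 390.4 in the wild-type-labelled pair. Ikzf2 gave 78.5 then 322 in the knockout-labelled pair and 369.6 then 154 in the wild-type-labelled pair, and Ahi1 gave 148 then 339.8 in the knockout-labelled pair and 1014 then 518 in the wild-type-labelled pair. The immunoglobulin segment Igkv15-103 (-0.56 and -3.93) and Gm9706 (2.18 and -0.57) had the largest differences among named genes with at most 1 of the 4 signals at the floor, and both may share signal with near-identical sequences.

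In the opposite direction, Igfbp4, a binder of insulin-like growth factors, gave 9174 at 4 h and 4598 at 8 h in the knockout-labelled pair and 671 and 2588 in the wild-type-labelled pair. Its 6 probe sets did not all show this, since 1 was higher in both genotypes (0.72 and 0.73). Neil3, a DNA repair glycosylase of dividing cells, gave 644 at 4 h and 148 at 8 h in the knockout-labelled pair and 182 and 288 in the wild-type-labelled pair. The mismatch repair gene Mlh3 gave 399 then 143 in the knockout-labelled pair and 159 then 265 in the wild-type-labelled pair. Slc39a11, a zinc carrier, was at -0.35 and 1.87, Vldlr, a lipoprotein receptor, at -1.37 and 0.82, Cask, a membrane scaffold, at -1.16 and 1.01, and Smarcd1, a chromatin remodelling subunit, at -1.12 and 1.01. Gm6958 was at -0.36 and 2.34 and may share signal with a near-identical copy. Most of these signals are under 1000, and with 1 array per genotype and time no replicate checks any of them.

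**Figure D5:**
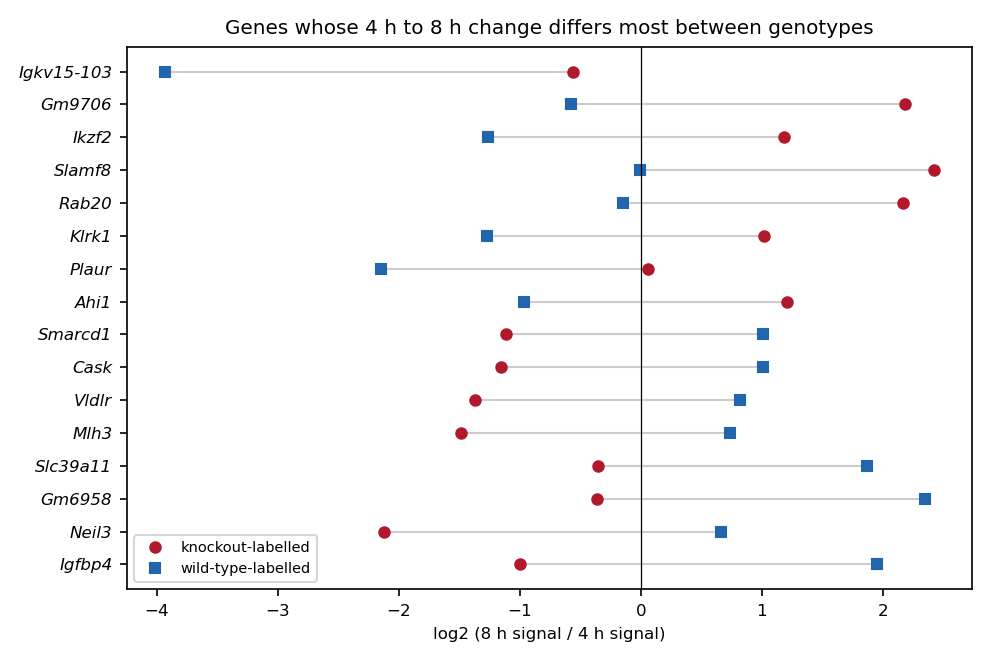
Log2 ratio of the 8 h to the 4 h signal for the 8 genes per direction whose change differed most between the genotypes with no more than 1 of the 4 signals at the floor, red circles for knockout-labelled and blue squares for wild-type-labelled pair. Igkv15-103 has the largest gap, and Ikzf2, Klrk1, Smarcd1 and Cask lie at least 2-fold on opposite sides of 0.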

How the data were processed

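The values are MAS5 signal intensities, deposited by the authors as 1 linear value per probe set and array. GCOS 1.4 and MAS5 are named in the submitters' processing notes, and the scaling step itself is not described there. They were used as deposited. Of 22690 probe sets, 64 controls were left out. Signals were raised to a floor of 141.88 (median over arrays of the 40th percentile), log2 was taken, and the 15062 probe sets exceeding it on 2 or more arrays entered the tests. Of the probe sets, 20380 had 1 gene symbol, 691 several and 1555 none, and the probe set of highest mean stood for its gene. In limma 3.58.1 (R 4.3.3), time and genotype were fitted to all 8 arrays with eBayes and a variance trend, leaving 3 residual degrees of freedom, and p-values were Benjamini-Hochberg adjusted over all 15062. The scripts were tested on simulated data. Genotype, which pairs the arrays, was the block. The comparison, the 41 gene lists (648 genes tested) and the tests were chosen with earlier results of these data known. Named were the 15 genes per direction with the largest mean change that were at least 2-fold in both genotypes, the 8 per direction with the largest difference between genotypes, limma calls, and list members by size or textbook role. A few others (Zbtb32, Bcat1, Slc7a3, Ccng2, Ypel3, Nr4a1, Fos, Ccr7 and list members outside the largest 3) were chosen after their values were seen. Alternatives were other scalings, floors, fold thresholds and filters, other limma models, and leaving out each array. Tables and figures were made with numpy 2.4.6, pandas 2.3.3 and matplotlib 3.10.9 under python 3.11.15. The number of arrays limits the precision.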

Additional observations from a re-analysis of the deposited data

Results flagged for a closer look

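With each gene taken by its probe set of highest mean, for 4 genes the arrays of the 2 genotypes moved at least 2-fold in opposite directions from 4 h to 8 h with no more than 1 of the 4 signals at the floor, and this difference was not tested, since each genotype has 1 array per time. Ikzf2 (Helios) was higher at 8 h in the knockout-labelled pair and lower in the wild-type-labelled pair, with a difference between the changes of 2.45 on the log2 scale, and its knockout-labelled 4 h signal was under the floor. Klrk1 (NKG2D) differed the same way by 2.29. Cask differed in the other direction, at -2.17, with its wild-type-labelled 4 h signal under the floor, and its 2 further probe sets gave -0.74 and -1.24 in the knockout-labelled pair and were under the floor at both times in the wild-type-labelled pair. Smarcd1 differed at -2.13. Over all 13 such probe sets, whatever their floor count, the others were further probe sets of Mapre1, Hif1a, Zbtb14 and Cyth1 and 5 with no single gene symbol.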

How the results depend on the processing

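The count of 0 limma calls for the 4 h to 8 h step was the same under all alternatives run. Counts at least 2-fold in both genotypes were 46 higher and 53 lower. They were 54 and 43 after quantile normalization, 60 and 33 after division of arrays by their medians, 155 and 183 with the floor at the 20th percentile, 15 and 26 with it at the 60th, and 24 and 21 with the floor value added to each signal before log2. They were 225 and 395 at 1.5-fold and 10 and 2 at 3-fold. Leaving out 1 array leaves 1 genotype, and its own counts were 294 to 312 higher and 325 to 563 lower. Changes differing at least 4-fold between genotypes numbered 45 and 23, then 308 and 500 with the floor at the 20th percentile, 12 and 3 at the 60th, 16 and 5 with the floor value added, and 2 and 0 at 8-fold. The 4 step-difference calls became 0 with the floor at the 60th percentile, with no genotype block and without any 1 of the 4 h and 8 h arrays (0 to 0, an alternative chosen after seeing the data, in which the lone array of a genotype is assumed to vary like the rest). With no filter they were 0 lower and 2 higher. Genotype was the block in the reported values. Of 410 values of list medians under alternatives, 334 moved by less than the spread between the genotypes and 76 by more. Of 267 such values for named genes, 222 stayed, 31 no longer met the size rule, 14 moved and 0 reversed. The causes were not tested.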

Other observations

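Genes of other programmes were mixed over this step. Of 14 genes of the p53 response, 6 were higher and 4 lower in both genotypes (median 0.17), with the stress gene Gadd45g at 0.94 and 0.86 and Gadd45a at -0.96 and -0.70 on the log2 scale. The summed signal of this list at 8 h was lower, at 0.854 and 0.849 of that at 4 h. Its median was 0.00 with the floor at the 60th percentile. Of 27 activation transcription factors, 7 were higher and 9 lower in both, and Irf4, a factor of effector differentiation, was level at 0.08 and 0.00 with signals of 5161 and 5452 in the knockout-labelled pair and 21952 and 22014 in the wild-type-labelled pair. Batf, its partner on DNA, was at 0.43 and 0.45. Among 18 costimulatory and inhibitory receptors, 3 were higher in both, Lag3, Cd200 at 0.90 and 0.80 and Tnfrsf9, the receptor 4-1BB, at 1.20 and 0.42, and 7 lower, among them the ligand gene Cd274 at -0.64 and -0.83. Of the Myc network, Max was at 0.71 and 0.73 and Mxi1 at -0.62 and -0.81. The summed signals of red cell markers at 8 h were 1.25 and 0.793 of those at 4 h, and of 6 MHC class II genes 1 was higher and 0 lower in both genotypes.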
